A study of Mus musculus with 8 samples.

Results

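Immunoglobulin variable (V) segments were read out in inguinal white adipose tissue, the subcutaneous fat pad of the groin. All rows that the authors' table classes as immunoglobulin V genes were taken, 218 of 54532 genes, whatever their level. Of these, 113 carry the prefix Ighv (heavy chain, chromosome 12), 100 carry Igkv (kappa light chain, chromosome 6), 3 carry Iglv (lambda light chain, chromosome 16), and 2 on chromosome 6, Gm43218 and Gm42543, carry none of these. The study set 4 libraries of male, HFD-fed KLF10AKO mice, a knockout of the transcription factor KLF10 in adipocytes, against 4 libraries of male, HFD-fed wild-type (WT) mice. It asked which genes of this tissue differ with the knockout. The sources used here give no Cre driver, no ages and no animal for a library, so p-values cover the spread among libraries alone, which may be technical.

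A B cell makes its antibody by joining a V segment to a J segment, with a D segment between them in the heavy chain, through the RAG recombinase. The joined exon is spliced to a constant region such as Ighm, Ighd, Igkc or an Iglc gene. Each mature B cell as a rule expresses a single productive heavy chain and a single light chain, and across cells many different joins can use the same V segment. The table counts reads per germline segment, and it holds no joined sequences or clones.

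Levels are FPKM as the authors computed them, which count fragments per length of gene and per size of library. Whole reads were recovered from them, 15900731 to 17396282 in KLF10AKO libraries and 15537863 to 17499132 in WT libraries. The authors' library sizes were not these totals. On 360 bases, 3 reads gave 0.472 FPKM in KLF10AKO replicate 4 (15900731 reads) and 0.558 FPKM in WT replicate 1 (16145160 reads). Klf10 itself stood at 9.60 ± 0.157 FPKM in KLF10AKO and 18.2 ± 2.09 FPKM in WT (SD, n = 4 each), a value over the whole gene that does not read the deleted part on its own. The tissue label was checked against 6 adipocyte markers, whose summed level ran from 1837 to 2506 FPKM in KLF10AKO libraries and from 7582 to 7707 FPKM in WT libraries, with 6 of 6 lower. Markers of other cells differed as well, with 8 of 8 B cell, 6 of 6 T cell, 4 of 4 lymph node stroma and 5 of 6 skeletal muscle genes tested higher in KLF10AKO. Over all genes tested, 39.4% were called higher and 34.9% lower. Genes with a WT mean under 0.5 FPKM passed the filter of that mean over the 8 libraries only through KLF10AKO. Among them were Ms4a1, Cr2, Pax5, Cd3e, Cd8a, Madcam1 and Myh4. For such genes these counts lend no weight. Summed over the B cell markers, the level was 1042 to 1543 FPKM in KLF10AKO and 2.65 to 3.69 FPKM in WT. Summed over T cell markers, it was 229 to 337 FPKM in KLF10AKO and 2.35 to 3.89 FPKM in WT, and over lymph node stroma genes it was 141 to 382 FPKM in KLF10AKO and 0.941 to 1.54 FPKM in WT, where the stromal chemokine gene Ccl21a was at 0 in all 4 libraries. Skeletal muscle genes summed to 4392, 3318, 7702 and 33.6 FPKM in KLF10AKO replicates 1 to 4 and to 162 to 215 FPKM in WT, so KLF10AKO replicate 4 stood apart from the other 3. Nearly all of the WT sum was Acta1, at 160 to 213 FPKM, the muscle gene not called. In KLF10AKO replicate 4, Tnnt3, Tnni2 and Mylpf (3.11, 1.85 and 7.68 FPKM) lay above every WT library. Acta1 and Myh4 lay below every WT library there, and Ckm within the WT range. Prl3b1, a placental hormone gene, was at 0 in KLF10AKO and at 7.13 to 19.3 FPKM in WT. The part of these other cells in the V segment results was not tested. In bulk tissue, fewer cells of a type and less RNA per cell cannot be told apart.

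V segments of a family are near copies of each other, which limits how far reads can be assigned. The last 120 coding bases are shown for 8 segments that carry the results, as 4 pairs of close relatives, from the transcripts of GENCODE M21 on mm10. Capitals mark the bases at which the members of a pair differ within this stretch. The first pair is Ighv1-26, the most abundant heavy chain segment, at chr12:114788372-114788491 on the minus strand, and its nearest relative Ighv1-18 at chr12:114682632-114682751 on the minus strand. They differ at 2 of the 120 bases.
Ighv1-26: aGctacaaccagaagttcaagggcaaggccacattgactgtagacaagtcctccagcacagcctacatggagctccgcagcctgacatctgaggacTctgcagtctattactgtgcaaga
Ighv1-18: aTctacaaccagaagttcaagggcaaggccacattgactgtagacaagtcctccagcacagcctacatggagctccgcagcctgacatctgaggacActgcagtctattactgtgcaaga
The next pair is Igkv1-117, the most abundant kappa segment, at chr6:68121708-68121827 on the plus strand, and Igkv1-110, the segment that varied most between KLF10AKO libraries, at chr6:68271148-68271267 on the plus strand. They differ at 4 bases.
Igkv1-117: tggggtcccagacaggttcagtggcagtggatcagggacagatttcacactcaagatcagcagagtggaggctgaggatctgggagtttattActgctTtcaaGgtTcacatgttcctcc
Igkv1-110: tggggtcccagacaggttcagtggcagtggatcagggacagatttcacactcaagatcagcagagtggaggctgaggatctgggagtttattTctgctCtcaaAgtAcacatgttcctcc
The third pair is Igkv10-94, the segment with the most WT reads, at chr6:68704508-68704627 on the minus strand, and Igkv10-96, a leading kappa segment of KLF10AKO, at chr6:68631963-68632082 on the minus strand. They differ at 12 bases.
Igkv10-94: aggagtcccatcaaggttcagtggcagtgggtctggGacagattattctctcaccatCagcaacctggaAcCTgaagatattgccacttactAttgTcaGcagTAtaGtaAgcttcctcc
Igkv10-96: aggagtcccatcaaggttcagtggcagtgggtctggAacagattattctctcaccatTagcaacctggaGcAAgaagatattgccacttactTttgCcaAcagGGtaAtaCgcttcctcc
The last pair is Iglv1, at chr16:19085017-19085136 on the minus strand, and Iglv2, at chr16:19260401-19260520 on the minus strand. They differ at 4 bases.
Iglv1: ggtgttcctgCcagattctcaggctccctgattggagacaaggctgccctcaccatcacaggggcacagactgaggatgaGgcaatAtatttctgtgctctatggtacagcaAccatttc
Iglv2: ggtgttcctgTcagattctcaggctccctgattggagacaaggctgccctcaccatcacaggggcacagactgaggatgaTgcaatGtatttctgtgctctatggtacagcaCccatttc

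All 218 segments are in that annotation with the coordinates of the table. Over whole coding sequences, a segment was identical to its nearest relative at a median of 94.9% of bases, and 22 segments reached 98%. Ighv1-26 and Ighv1-18 were 96.9% identical, Igkv1-117 and Igkv1-110 97.2%, Igkv10-94 and Igkv10-96 95.4%, and Iglv1 and Iglv2 97.1%. The least alike was Iglv3, at 59.5%. At a window of 100 bases, 136 segments shared no window with another immunoglobulin V gene or pseudogene and 82 shared some. Only 5 of the 218 shared at least 50% of their windows, namely Igkv8-16, Igkv6-20, Gm43218, Ighv1-62-2 and Ighv1-71. How reads matching several places were counted, and whether strand was used, is not given in the sources used here, so the level of any single segment is uncertain by the reads its relatives share.

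V segments were high in the KLF10AKO libraries and close to absent in the WT libraries. KLF10AKO replicates 1 to 4 held 7470, 7690, 5871 and 8390 reads on V segments, against 43, 21, 35 and 13 reads in WT replicates 1 to 4. That was 0.0430%, 0.0442%, 0.0345% and 0.0528% of all recovered reads in KLF10AKO, against 2.66e-04%, 1.20e-04%, 2.14e-04% and 8.37e-05% in WT. Every KLF10AKO library was above every WT library, and the groups were far apart.

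The summed level over all V segments was 1078 ± 169 FPKM in KLF10AKO and 5.02 ± 2.52 FPKM in WT (SD, n = 4 each), 215-fold higher. It was 1064, 1093, 871 and 1283 FPKM in KLF10AKO replicates 1 to 4 and 7.83, 3.45, 6.39 and 2.42 FPKM in WT replicates 1 to 4. The same held in each class. Heavy chain segments summed to 260 ± 49.2 FPKM in KLF10AKO and 1.59 ± 1.00 FPKM in WT (SD, n = 4 each), 164-fold higher. Kappa segments summed to 677 ± 107 FPKM in KLF10AKO and 3.09 ± 2.09 FPKM in WT (SD, n = 4 each), 219-fold higher. The 3 lambda segments summed to 140 ± 15.3 FPKM in KLF10AKO and 0.342 ± 0.247 FPKM in WT (SD, n = 4 each), 409-fold higher. No p-value is given for these sums. KLF10AKO replicate 4, the lowest of its group in muscle genes, had the highest summed V level of the 8. Replicate 3, with the most muscle RNA, had the lowest of the KLF10AKO libraries. This order was not particular to muscle. Adipocyte marker sums ran in the same order as muscle, at 2174, 2132, 2506 and 1837 FPKM in KLF10AKO replicates 1 to 4. B cell marker sums ran with the V level, at 1253, 1323, 1042 and 1543 FPKM. The cause was not tested.

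**Figure D1:**
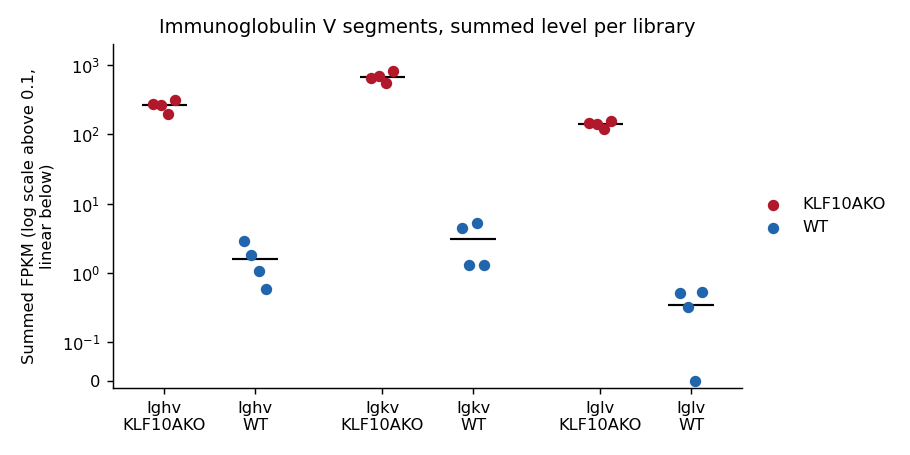
Summed FPKM of Ighv, Igkv and Iglv segments in each library, on an axis that is logarithmic above 0.1 and linear below. Points are libraries and lines are group means, n = 4. In all 3 classes the KLF10AKO libraries lie far above the WT libraries, and the lambda sum of WT replicate 3 is 0.

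Nearly the whole germline set was read in the KLF10AKO libraries. KLF10AKO replicates 1 to 4 had a read on 193, 186, 189 and 197 of the 218 segments, against 24, 15, 12 and 10 in WT replicates 1 to 4. For heavy chain segments these numbers were 93, 90, 92 and 97 of 113 in KLF10AKO, against 9, 7, 5 and 3 in WT. For kappa segments they were 95, 92, 92 and 95 of 100 in KLF10AKO, against 14, 6, 7 and 5 in WT. All 3 lambda segments were read in every KLF10AKO library, against 1, 2, 0 and 2 of them in WT replicates 1 to 4.

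Taken over libraries, 174 segments had a read in every KLF10AKO library, 33 had one in 1 to 3 of them, and 11 had none. The 11 without a read in KLF10AKO were 1 kappa segment of family Igkv1 and the 10 heavy chain segments Ighv5-12-4, Ighv7-2, Ighv16-1, Ighv6-4, Ighv6-7, Ighv1-16, Ighv1-24, Ighv1-62-1, Ighv8-9 and Ighv8-13, and they had none in WT either. Of these 11, 6 share some 100-base window with another V gene or pseudogene and 5 share none. In WT, 45 segments had a read, 32 of them in 1 library, 10 in 2, 3 in 3 and 0 in all 4. All 112 WT reads fell on segments that were also read in KLF10AKO. The 2 members without a class prefix were low: Gm43218 had 12, 1, 2 and 1 reads and Gm42543 had 3, 0, 1 and 1 reads in KLF10AKO replicates 1 to 4, with 0 in WT.

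Detection depends on the number of reads, so the KLF10AKO libraries were also set at the read number of each WT library by the exact expectation of random drawing. At 43 V reads, the KLF10AKO libraries would show 32.2 to 32.9 segments, against 24 in WT replicate 1. At 21 reads they would show 18.0 to 18.2, against 15 in WT replicate 2, and at 13 reads 11.8 to 11.9, against 10 in WT replicate 4. The gap was widest at 35 reads, with 27.4 to 27.9 expected from KLF10AKO and 12 in WT replicate 3. All 4 WT libraries lay below every KLF10AKO expectation, which was not tested. That these gaps are smaller than at full depth was set in advance, since 13 to 43 reads cannot show more than 13 to 43 segments. WT replicate 3 also differed in the kappa class alone, where 29 reads fell on 7 segments, against 22.0 to 22.2 expected from KLF10AKO.

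Of the 218 segments, 145 had a mean of at least 0.5 FPKM over the 8 libraries and entered limma's test across all genes. All 145 were higher in KLF10AKO at an adjusted p under 0.05 (63 Ighv, 79 Igkv and 3 Iglv) and 0 were lower, also 0 at an unadjusted p under 0.05 and 0 with voom on the recovered reads. Over all 16012 genes tested, 39.4% were called higher and 34.9% lower. The count of 145 lends no weight, since only 1 of these segments (Igkv10-94) had a WT mean of 0.5 FPKM or more, and the other 144 could pass the filter only through their KLF10AKO level. Their median log2 change, on the log2(FPKM + 0.5) scale, was 3.15 (all genes tested, 0.05), with a range of 1.14 to 6.65 and a largest adjusted p of 0.0123. That scale understates the change of low genes. Without the filter, 176 of the 207 segments with any read were called higher, where 23.5% of all genes were (19.6% lower). All 4 KLF10AKO values lay above all 4 WT values for 169 of the 218 segments (79 Ighv, 86 Igkv, 3 Iglv and Gm43218), where 22.5% of the 31609 genes with any read showed this.

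A pair of lambda segments, Iglv1 and Iglv3, had the highest levels of all members in KLF10AKO. Iglv1 stood at 64.6, 56.6, 53.7 and 65.5 FPKM in KLF10AKO replicates 1 to 4, against 0.514, 0, 0 and 0.174 FPKM in WT replicates 1 to 4. Iglv3 stood at 62.6, 65.3, 49.8 and 67.8 FPKM in KLF10AKO, against 0, 0.158, 0 and 0.357 FPKM in WT. In KLF10AKO the levels of Iglv1 and Iglv3 lay within each other's spread, and no WT library came near them. The log2 change was 6.55 (SE 0.214) for Iglv1 and 6.65 (SE 0.182, adjusted p = 9.29e-09, limma) for Iglv3, the largest of the members tested. Iglv2, the near copy of Iglv1, stood at 17.4, 18.1, 15.4 and 22.1 FPKM in KLF10AKO, against 0, 0.164, 0 and 0 FPKM in WT, a log2 change of 5.12 (SE 0.135). Iglv2 was the lowest of the 3 lambda segments in every KLF10AKO library. By reads, lambda segments made up 18.8%, 17.3%, 18.1% and 16.6% of light chain V reads in KLF10AKO replicates 1 to 4, against 3 of 27, 2 of 10, 0 of 29 and 3 of 10 in WT replicates 1 to 4. The exact 95% binomial interval for WT replicate 3 reaches 11.9%, below the lower limit of every KLF10AKO library (15.7% at the lowest), while the intervals of WT replicates 1, 2 and 4 (2.35% to 29.2%, 2.52% to 55.6% and 6.67% to 65.2%) take in the KLF10AKO shares. The sequenced reads carry no molecular identifiers, so such intervals and floors cover counting error only.

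Kappa segments came next. Igkv1-117 led in all 4 KLF10AKO libraries, with 33.6, 37.0, 30.8 and 40.7 FPKM in KLF10AKO, against 0, 0.149, 0.165 and 0 FPKM in WT. Its groups did not overlap, and its log2 change was 5.97 (SE 0.129, adjusted p = 3.58e-09, limma). It had 1057 reads in the 4 KLF10AKO libraries and 2 in the 4 WT libraries, and the ratio of these pooled reads, scaled by the authors' library sizes, was 439, with an exact 95% counting interval of 121 to 3631. After it came Igkv10-96, Igkv6-17, Igkv6-15 and Igkv1-135, at 30.2 ± 7.24, 25.4 ± 1.18, 25.3 ± 5.30 and 22.8 ± 2.11 FPKM in KLF10AKO (SD, n = 4). Neighbours in this order did not differ beyond their spread over libraries, which also holds each library's own V level. Within libraries, Igkv1-117 was above Igkv10-96 in all 4, and the other neighbours changed order in KLF10AKO replicate 3 or 4. Igkv1-135 had 20.5, 23.3, 22.0 and 25.5 FPKM in KLF10AKO, against 0 in all 4 WT libraries, at least 183-fold higher with the 4 WT libraries together set at a floor of 3 reads. The median kappa segment stood at 4.48 FPKM in KLF10AKO, 79 of 100 were above 1 FPKM and 23 above 10 FPKM.

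Heavy chain segments were lower one by one. Ighv1-26 led in all 4 KLF10AKO libraries, with 17.3, 18.0, 11.3 and 18.9 FPKM in KLF10AKO, against 0, 0.171, 0 and 0 FPKM in WT, which was a single WT read. Its log2 change was 4.94 (SE 0.173, adjusted p = 3.47e-08, limma), and the scaled ratio of its pooled reads (424 in KLF10AKO and 1 in WT) was 352 with a counting interval of 62.9 to 13949. Its relative Ighv1-18, printed beside it, is a separate row. After Ighv1-26 came Ighv9-3, Ighv1-81, Ighv1-53 and Ighv1-82, at 10.3 ± 2.88, 9.23 ± 3.06, 8.71 ± 1.78 and 8.39 ± 2.73 FPKM in KLF10AKO (SD, n = 4). They lay within each other's spread over libraries. Within libraries, Ighv9-3 was above Ighv1-81 and Ighv1-82 in all 4, and the order of Ighv1-81, Ighv1-53 and Ighv1-82 varied. Ighv1-53 had 8.72, 11.0, 6.60 and 8.56 FPKM in KLF10AKO, against 0 in all 4 WT libraries, at least 62.6-fold higher. The median heavy chain segment stood at 1.36 FPKM in KLF10AKO, 62 of 113 were above 1 FPKM and 2 above 10 FPKM.

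The segments that were highest in WT rested on few reads. Igkv10-94 had 5, 2, 16 and 0 reads in WT replicates 1 to 4, and its 16 reads in replicate 3 were the most of any segment in any WT library. In FPKM it stood at 10.5, 8.81, 6.04 and 10.6 in KLF10AKO, against 0.965, 0.347, 3.07 and 0 in WT. The groups did not overlap, but its log2 change of 2.93 (SE 0.528, adjusted p = 8.51e-04, limma) and its scaled ratio of pooled reads of 8.31 were small beside those of Igkv10-96. Igkv10-94 took 1.62%, 1.27%, 1.09% and 1.31% of the summed kappa FPKM in KLF10AKO replicates 1 to 4, against 21.8%, 26.7%, 57.8% and 0% in WT replicates 1 to 4. Igkv10-96 took 4.78%, 4.78%, 3.60% and 4.53% in KLF10AKO, against 0%, 0%, 0% and 29.0% in WT. Its WT share was thus below KLF10AKO in replicates 1 to 3 and above it in replicate 4, on 2 reads. These shares of WT rest on 7 to 29 kappa reads a library.

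The other segments that led in WT were Igkv15-103, with 6 WT reads, Igkv1-110 and Ighv1-19, with 5 each, and Ighv1-80 and Ighv1-81, with 4 each. All 5 reads of Ighv1-19 were in WT replicate 1, and those of Ighv1-80 were 1, 2, 1 and 0 in WT replicates 1 to 4. Ighv1-19 averaged 4.67 ± 0.913 FPKM in KLF10AKO and 0.207 ± 0.413 FPKM in WT (SD, n = 4 each), with a scaled ratio of pooled reads of 23.1. Igkv15-103 averaged 8.47 ± 3.36 FPKM in KLF10AKO and 0.263 ± 0.232 FPKM in WT (SD, n = 4 each), with a ratio of 32.3. In total 20 segments had exactly 1 WT read, and 7 had more than 3. At WT depth, 3 reads correspond to 0.501 to 0.567 FPKM on a segment of typical length, so for most segments a WT level was not measurable.

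The smallest changes among the members tested belonged to low segments. Ighv7-1 had 0.436, 0.871, 1.22 and 1.09 FPKM in KLF10AKO, against 0.369, 0, 0.184 and 0 FPKM in WT, a log2 change of 1.14 (SE 0.258, adjusted p = 0.00323, limma). Igkv9-123 had 0.839, 2.24, 0.146 and 0.902 FPKM in KLF10AKO, against 0.178, 0, 0 and 0 FPKM in WT, a log2 change of 1.32 (SE 0.387, adjusted p = 0.0123, limma). Igkv1-99 had 1.68, 1.54, 0.293 and 1.36 FPKM in KLF10AKO, against 0, 0.320, 0 and 0 FPKM in WT, a log2 change of 1.50 (SE 0.341, adjusted p = 0.00330, limma). The groups of the last 2 overlapped, through KLF10AKO replicate 3.

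By family, the numbers in a segment's name, reads were spread widely. Among heavy chain segments, family Ighv1 holds 53 of the 113 rows (46.9%) and took 60.6% ± 1.41 of Ighv reads in KLF10AKO (SD, n = 4), against 26 of 36 reads (72.2%, exact 95% binomial interval 54.8% to 85.8%) in the 4 WT libraries together. Ighv5 followed with 8.30% ± 0.734 in KLF10AKO (SD, n = 4), against 0 of 36 reads in WT, which allows up to 9.74%. The WT share of both families took in the KLF10AKO share within its counting interval. Ighv7, Ighv15 and Ighv11 had 3, 2 and 2 of 36 WT reads. Their intervals began at 1.75%, 0.680% and 0.680%, above their KLF10AKO means of 1.51%, 0.309% and 0.360%. For Ighv7, KLF10AKO replicate 3 (1.91%) lay inside the interval. The WT interval of every other Ighv family took in its KLF10AKO mean.

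Among kappa families, Igkv6, Igkv4, Igkv1 and Igkv3 led in KLF10AKO, with 16.3% ± 0.948, 14.3% ± 1.06, 14.1% ± 1.53 and 10.5% ± 0.535 of Igkv reads (SD, n = 4). Igkv4 is the family with the most rows (26). Igkv10, with 5.76% ± 0.616 in KLF10AKO (SD, n = 4), took 25 of 68 reads in WT (36.8%, interval 25.4% to 49.3%). Of those 25, 16 came from WT replicate 3, and without that library the WT share was 9 of 39 reads (23.1%, interval 11.1% to 39.3%), still above the KLF10AKO range. Igkv15, the family of Igkv15-103, had 1.24% ± 0.334 in KLF10AKO (SD, n = 4) and 6 of 68 reads in WT (8.82%, interval 3.31% to 18.2%). Igkv4, by contrast, had 3 of 68 WT reads (4.41%, interval 0.919% to 12.4%), below its KLF10AKO share. Reads within a WT library need not be independent, and these 36 families were not tested.

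**Figure D2:**
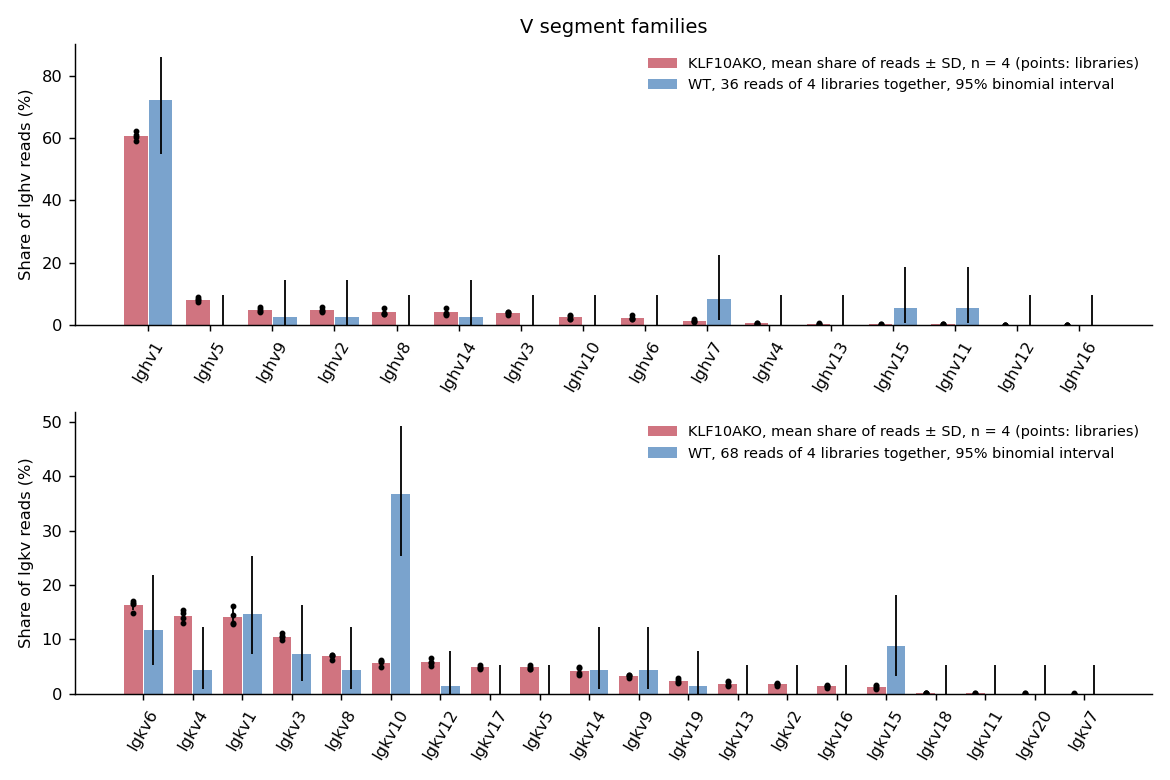
Share of Ighv reads (upper) and Igkv reads (lower) by V segment family. Red bars are KLF10AKO means with SD, n = 4, and dots are libraries. Blue bars are the reads of the 4 WT libraries together (36 Ighv and 68 Igkv) with exact 95% binomial intervals. Ighv1 leads in both groups, and Igkv10 stands at 36.8% in WT and 5.76% in KLF10AKO.

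Within KLF10AKO the reads were not concentrated in a few segments. The 5 highest heavy chain segments held 20.3%, 23.9%, 19.0% and 20.8% of the summed Ighv FPKM in KLF10AKO replicates 1 to 4, against 73.7%, 84.3%, 100% and 100% in WT replicates 1 to 4. The 5 highest kappa segments held 21.1%, 21.2%, 21.2% and 20.6% in KLF10AKO, against 55.9%, 88.5%, 93.6% and 100% in WT. The single highest segment took 5.76% to 6.94% of Ighv and 5.01% to 5.56% of Igkv FPKM across KLF10AKO libraries. With 3 to 16 Ighv reads and 7 to 29 Igkv reads in a WT library, these shares were not compared at equal depth.

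**Figure D3:**
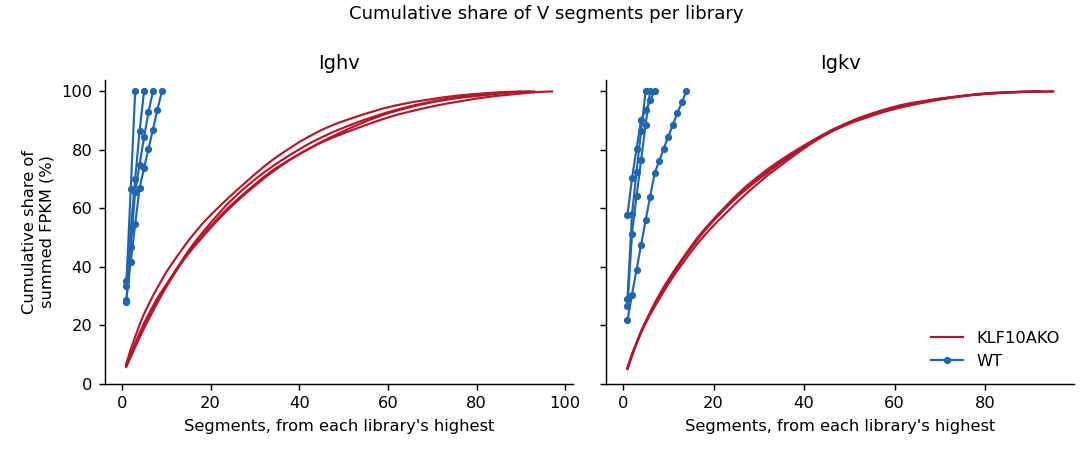
Cumulative share of the summed FPKM against the number of segments, counted from the highest of each library, for Ighv (left) and Igkv (right). Each line is a library. The KLF10AKO lines lie on each other and climb slowly to 90 to 97 segments, while WT lines end after 3 to 14 segments.

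Evenness, the Shannon entropy of the shares divided by its maximum over the segments read, was 0.906 ± 0.00830 for Ighv in KLF10AKO and 0.957 ± 0.0313 in WT (SD, n = 4 each). For Igkv it was 0.899 ± 0.00354 in KLF10AKO and 0.891 ± 0.125 in WT (SD, n = 4 each), a difference smaller than the WT spread. Taken over all listed segments instead of those read, the Ighv difference turned from -0.0502 to 0.525, so no direction of evenness can be given. The effective number of segments by the reads (inverse Simpson index, corrected for sampling) depends less on depth where many reads share segments. For all V segments it was 57.3, 58.5, 55.9 and 63.0 in KLF10AKO, against 28.2, 30.0, 4.47 and 26.0 in WT. All KLF10AKO libraries lay above all WT libraries, and WT replicate 3, with 16 of its 35 reads on Igkv10-94, was lowest. For Ighv it was 48.4 ± 3.54 in KLF10AKO (SD, n = 4) and 11.7 ± 2.96 in WT (SD, n = 3, WT replicate 4 with 3 reads on 3 segments giving no value). For Igkv it was 45.5 ± 0.687 in KLF10AKO and 11.2 ± 6.08 in WT (SD, n = 4 each). In WT this index rests on very few pairs of reads that share a segment. With few reads its largest finite value is small as well, 15.0 for the 6 Ighv reads of WT replicate 3. A low WT value for Ighv or Igkv was thus partly set by read number. Leaving out WT replicate 4, where no reads shared a segment, also lowers the Ighv mean of WT. No difference between the groups is read from these class means.

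The KLF10AKO libraries resembled each other in which segments they held. For each of the 6 pairs of KLF10AKO libraries, 86.4% to 89.9% of the shares overlapped, and Spearman's rho over the 218 segments was 0.919 to 0.945. These are descriptions over segments of 4 libraries, which share the germline and the sequence of each segment. Among segments with enough reads, differences between the libraries of a pair still exceeded counting noise, with a mean squared z of 2.03 to 2.66, where counting alone gives values near 1. Of the 82 segments with at least 100 reads in KLF10AKO, 40 had a variance of more than 2 times that of counting, and the median was 1.91 times.

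Among these 82 segments Igkv1-110 varied most, at 18.2 times. It stood at 13.9, 15.9, 20.5 and 33.8 FPKM in KLF10AKO replicates 1 to 4, against 0.167, 0, 0.665 and 0 FPKM in WT. As a share of summed kappa FPKM it was 2.15%, 2.29%, 3.69% and 4.16% in KLF10AKO replicates 1 to 4, so replicates 3 and 4 were high, while its near copy Igkv1-117 varied by 0.736 times counting noise. Next among the segments with at least 100 reads came Ighv8-8, with 4.68 ± 2.46 FPKM in KLF10AKO (SD, n = 4) and 0 in all 4 WT libraries, at 7.04 times. Igkv13-84 followed with 4.10, 9.41, 3.34 and 9.31 FPKM in KLF10AKO and 0 in WT, at 6.57 times. These segments were picked for their spread, so it is a description.

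Segments were used along the whole of each locus. Ordered by distance from the J segments, the nearest 38 Ighv segments held 25.2% ± 2.21 of the summed Ighv FPKM in KLF10AKO, the middle 38 held 35.8% ± 3.56 and the farthest 37 held 39.0% ± 1.60 (SD, n = 4 each). Their medians per segment were 1.08, 1.17 and 1.74 FPKM. For kappa, the nearest 34 held 35.9% ± 1.25, the middle 33 held 24.0% ± 0.932 and the farthest 33 held 40.0% ± 1.31 (SD, n = 4 each), with medians of 6.70, 3.31 and 4.77 FPKM. So by share and median the middle of the kappa locus was lowest in KLF10AKO. In the heavy chain locus the nearest part was, though its median was close to that of the middle part. Counts of segments above 1 FPKM ran otherwise. They were 23, 29 and 27 for kappa and 21, 19 and 22 for heavy chain, in the nearest, middle and farthest part. In WT, 8, 10 and 18 Ighv reads and 16, 4 and 48 Igkv reads fell in the nearest, middle and farthest part.

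Kappa segments lie on both strands, and they join by deletion where they run the same way as the J segments and by inversion where they run the other way. The 38 plus-strand segments held 47.0% ± 1.29 of kappa FPKM in KLF10AKO (SD, n = 4) with a median of 6.37 FPKM, and the 62 minus-strand segments held 53.0% ± 1.29 with a median of 3.64 FPKM. All 113 Ighv segments lie on the minus strand.

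**Figure D4:**
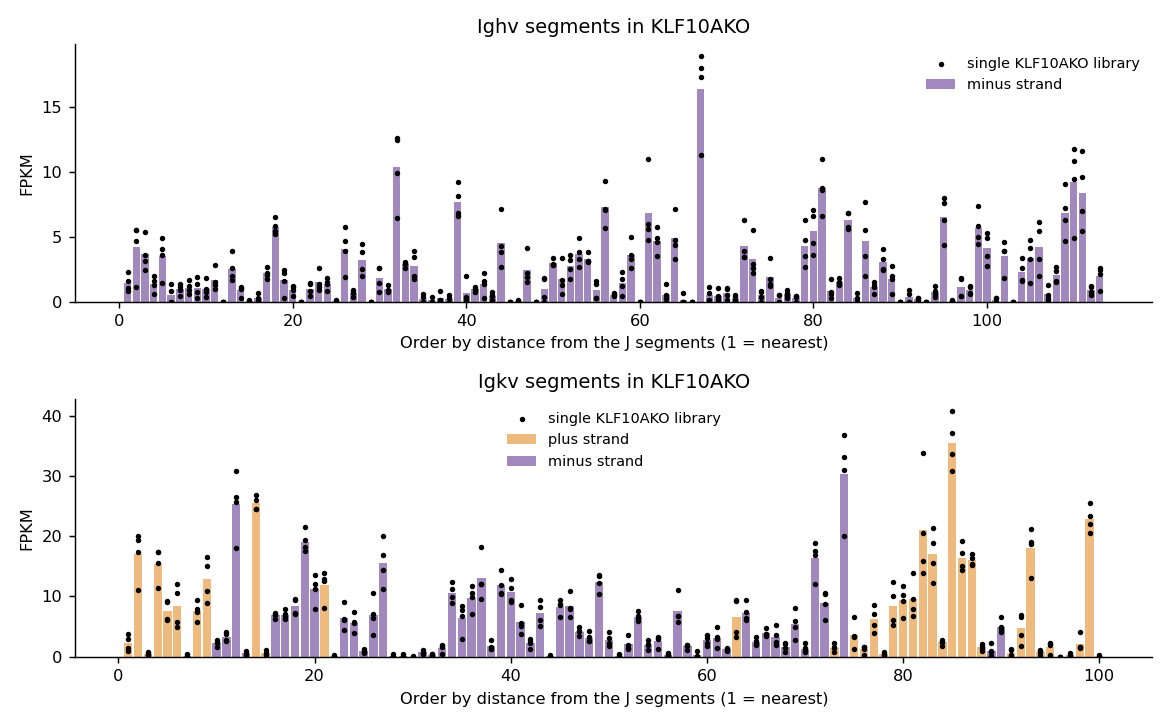
FPKM of each Ighv segment (upper) and Igkv segment (lower) in KLF10AKO, in order of distance from the J segments, nearest at left. Bars are means of 4 libraries coloured by strand, and dots are single libraries. High segments stand all along both loci, Ighv1-26 and Igkv1-117 being the tallest.

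Constant regions were set beside the V segments. All 9 of the 12 constant region genes that passed the filter were higher in KLF10AKO (median log2 change 7.13) and 0 lower. Over all genes tested, 39.4% were called higher and 34.9% lower. The count lends no weight for Iglc1, Iglc2, Ighg2b and Ighg3. Their WT means were under 0.5 FPKM, so they passed the filter only through their KLF10AKO level. Ighd, the IgD heavy chain of naive B cells, stood at 520, 562, 431 and 615 FPKM in KLF10AKO, against 2.01, 1.84, 1.51 and 1.40 FPKM in WT. Igkc, the kappa constant region, averaged 1319 ± 219 FPKM in KLF10AKO and 9.34 ± 3.65 FPKM in WT (SD, n = 4 each). The class-switched genes were low, with Ighg2b at 2.02 ± 0.340 FPKM in KLF10AKO and 0.00622 ± 0.0124 FPKM in WT (SD, n = 4 each). Igha, the IgA heavy chain, differed less, at 2.45 ± 0.327 FPKM in KLF10AKO and 0.620 ± 0.341 FPKM in WT (SD, n = 4 each). It had 481 reads in KLF10AKO and 102 in WT, a log2 change of 1.46.

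Ighm, the IgM heavy chain, was by far the highest constant region in WT. It stood at 656, 684, 580 and 744 FPKM in KLF10AKO, against 213, 168, 257 and 126 FPKM in WT, where it held 21999 reads. Its log2 change was 1.85 (SE 0.203, adjusted p = 3.67e-05, limma), with no overlap of the groups. No exon of another gene in GENCODE M21 overlaps those of Ighm. Summed Ighv FPKM over Ighm FPKM was 0.410, 0.379, 0.339 and 0.425 in KLF10AKO, against 0.0136, 0.0109, 0.00419 and 0.00462 in WT. So the WT libraries held Ighm RNA at a level that was not matched by V segment reads, in all 4 libraries.

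Against Ighd, Igkc and the Iglc genes the ratios were closer. Ighv over Ighd was 0.487 ± 0.0332 in KLF10AKO and 0.890 ± 0.434 in WT (SD, n = 4 each), with overlapping values. Igkv over Igkc was 0.519, 0.473, 0.533 and 0.534 in KLF10AKO, against 0.429, 0.159, 0.386 and 0.255 in WT, the groups being apart by a small margin. Iglv over summed Iglc was 0.304 ± 0.0322 in KLF10AKO and 0.435 ± 0.378 in WT (SD, n = 4 each). Summed V FPKM over summed B cell markers was 0.849, 0.827, 0.836 and 0.832 in KLF10AKO, almost a constant, against 2.84, 1.30, 2.03 and 0.656 in WT.

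**Figure D5:**
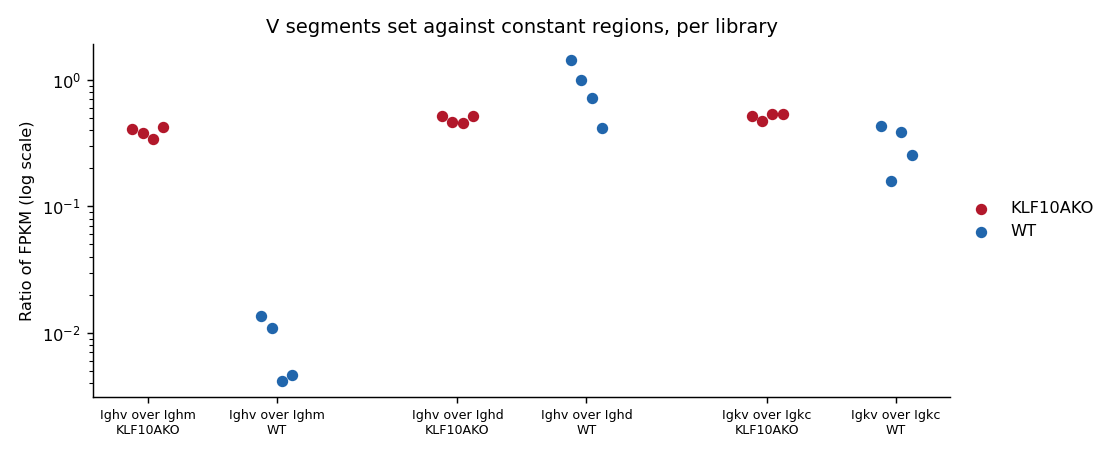
Ratio of summed V segment FPKM to constant region FPKM in each library, on a log axis. Points are libraries, 4 in each group. Ighv over Ighm is 0.339 to 0.425 in KLF10AKO and 0.00419 to 0.0136 in WT, while the ratios to Ighd and Igkc lie closer together.

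Genes of the stages and factors through which V segments are used were read from lists. All 8 B cell markers were higher in KLF10AKO (median log2 change 6.90), among them Cd79a, a signalling chain of the B cell receptor, at 8.47. Only Cd79a and Cd79b had a WT mean of 0.5 FPKM or more, so the count lends no weight for the others. Of the 7 genes of precursor B cells and V(D)J recombination, only Vpreb3, a surrogate light chain relative, passed the filter, and it was higher by 3.93. Rag1 and Rag2, the recombinase itself, had 3 and 0 reads in all 4 KLF10AKO libraries together, against 0 and 0 in WT. Dntt, the polymerase that adds bases at the joints, had 109 reads in KLF10AKO against 1 in WT, and Igll1, the surrogate light chain gene, had 11 against 0. Vpreb1, the other part of the surrogate light chain, was below the filter with 8 reads in KLF10AKO against 16 in WT, and Vpreb2 had 1 against 0. Among germinal centre genes, 3 were tested, with Mki67, a gene of dividing cells, higher (0.31) and Bcl6 and Fas lower (-0.30 and -0.89). With 39.4% of all genes higher and 34.9% lower, no result is read from a count over 3 genes.

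Plasma cell genes went both ways. Of 7 tested, 4 were higher and 2 lower, with a median log2 change of 0.53. Of all genes tested, 39.4% were higher and 34.9% lower, so no result is read from this count. Mzb1, a chaperone of antibody secretion also found in naive B cells, was higher by 6.31. Jchain, which links IgM and IgA polymers, stood at 1.76 ± 0.523 FPKM in KLF10AKO and 0.581 ± 0.404 FPKM in WT (SD, n = 4 each), higher by 1.13. Sdc1 and Xbp1, which other cells of the tissue also express, were lower by log2 changes of -0.59 and -1.01.

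Of 6 factors that bind immunoglobulin promoters and enhancers, 5 were higher and 1 lower in KLF10AKO, with a median log2 change of 2.56. Pou2af1, the B cell coactivator of octamer elements, was higher by 6.28, Pou2f2 by 3.74, the Ets factor Spib by 6.77, Tcf3 by 1.39 and the widely expressed Pou2f1 by 0.98. Ebf1, a B cell factor that adipocytes also express, was lower by a log2 change of -0.60, at 11.2 ± 0.682 FPKM in KLF10AKO and 17.3 ± 1.84 FPKM in WT (SD, n = 4 each). For these lists, the share of all genes called stands above, at 39.4% higher and 34.9% lower. Vpreb3, Mzb1, Prdm1, Pou2f2, Pou2af1 and Spib had WT means under 0.5 FPKM and could enter the test only through their KLF10AKO level.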

How the data were processed

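Poly(A)-selected RNA of 8 libraries was sequenced, per the labels' protocols. HISAT2 2.0.5, featureCounts 1.5.0-p3, edgeR 3.22.5 and the mm10 build are named in the submitters' processing notes, which give no role or order. The deposited table holds FPKM computed by the authors, beside gene lengths. Multiplied by length, 100% of the values of a library came out as whole numbers of a common unit, within 0.01 of a read, which gave the recovered reads. The count models planned for a count table were not run, since the file holds FPKM.

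From there, limma 3.58.1 in R 4.3.3 (lmFit, eBayes with trend) was fitted without covariates to log2(FPKM + 0.5) of the 16012 genes with a mean FPKM of at least 0.5. P-values are two-sided, adjusted by Benjamini-Hochberg over all genes tested, with a threshold of 0.05. The fit was tested on simulated data. Shares, evenness and effective numbers were computed in Python 3.11.15. A fold against 0 sets the 4 WT libraries together at a floor of 3 reads, and intervals are exact at 95%. Segments named are the 5 highest in KLF10AKO and the 3 highest in WT for Ighv and Igkv, all Iglv, and the 3 largest and 3 smallest changes. Igkv1-110 also served, with Ighv8-8 and Igkv13-84, as the segments of largest spread, named after their values were seen. The members and lists were chosen with earlier results of these data known. Alternatives were other pseudocounts, filters, scalings, detection limits and depths, a replicate block, each library left out, and, added after seeing the data, voom on recovered reads and KLF10AKO replicate 4 alone. Columns of other samples in the table numbered 0.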

Additional observations from a re-analysis of the deposited data

Results flagged for a closer look

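Within groups of 4 libraries, 60 sets of values were examined for a value far from the other 3, of which chance would mark about 1 in 20. A pair was marked, both through WT replicate 3. Evenness over all V segments was 0.952, 0.963, 0.746 and 0.975 in WT replicates 1 to 4, where the gap to the nearest value was 0.898 of the whole range. Evenness of Igkv segments was 0.939, 0.961, 0.705 and 0.959 in WT replicates 1 to 4, where the gap was 0.914 of the range. In that library 16 of 35 V reads fell on Igkv10-94. Outside the segments described, V pseudogenes had reads in KLF10AKO, with a mean of 97.0 reads a library (88, 92, 87 and 121 in replicates 1 to 4), against 1, 2, 1 and 0 in WT replicates 1 to 4. Of 155 such rows, 45 were read in KLF10AKO and 3 in WT, and the highest, Igkv2-107, stood at 3.55 ± 1.02 FPKM in KLF10AKO (SD, n = 4) on 82 reads, against 0 in WT.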

How the results depend on the processing

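The number of segments higher in KLF10AKO was 145 with pseudocounts, TPM, voom and each library left out (145 to 145), 144 with KLF10AKO replicate 4 alone, 176 with no filter and 78 at a minimum mean of 2 FPKM, where fewer segments were tested. None of these settings gave a lower one (0 to 0 with each library left out). The median log2 change of all genes was 0.05, 0.25 with TPM and 0.27 with voom. The difference in segments detected (176) was 199.5 with pseudogenes, 129.75 at 10 reads or more, 2.35 at 13 V reads a library and 174 to 179 with each library left out, and that of the log2 summed level 7.52 to 8.04. The top-5 difference in percentage points moved to -25.1 (Ighv) and -28.6 (Igkv) for the single highest segment, and ran from -73.8 to -65.0 and from -73.0 to -58.3 with each library left out. Evenness turned to 0.525 for Ighv over all listed segments (-0.0592 to -0.0358 with each library left out). The Igkv difference of 0.00774 became 0.499 over all listed segments, -0.00940 with pseudogenes and -0.00487 by reads, and -0.0544 to 0.0311 with each library left out, the lowest without WT replicate 3. The lambda difference of 2.39 points ran from -2.54, without WT replicate 3, to 7.09. Where not stated, the cause was not tested.

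Libraries of the same number barely deviated together (correlations 0.003 to 0.031). The WT library of the same number was still the closest for KLF10AKO replicates 1, 3 and 4, so whether the numbers pair libraries is unclear. With a replicate block 145 segments were higher and 0 lower. For the 21 named segments, 332 of 333 values under alternatives kept direction and call. The remaining value was that of Igkv10-94 with KLF10AKO replicate 4 alone, which was assumed to vary like WT. Its log2 change was then larger (3.19, against 2.93) and did not pass, which says nothing about the segment. The 13 to 43 V reads of a WT library limit every statement on single segments in WT.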
